A study of Mus musculus with 6 samples.

Results

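Genes of the apical polarity machinery and the apical transport gene *Mal2* were followed in *Pdx1*-lineage cells of mouse embryos with and without *mir-302*. The group holds 10 of the 55414 genes in the count table. *Pard3*, *Pard6a*, *Pard6b*, *Prkci*, *Prkcz*, *Crb3*, *Patj*, *Llgl1* and *Scrib* were chosen by their role, with earlier results of these data known. *Mal2* was chosen by its difference between the genotypes compared here, as a gene among those with the strongest rise, so its values are a description and carry no test. All 10 genes passed the filter on low counts.

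The comparison asked how the transcriptome of these cells differed between knockout (KO) and wild-type (WT) embryos at mid-gestation (E10.5), with 3 mRNA libraries per genotype. All embryos carried the transgene *Pdx1-Cre* and a *Rosa26* allele that expresses tdTomato after Cre recombination, and the groups were Pdx1-Cre+, Tdtomato+, miR-302WT and Pdx1-Cre+, Tdtomato+, miR-302KO. tdTomato cells were sorted from the trunk of offspring of *mir-302* heterozygotes, so *mir-302* was missing from the whole embryo and not from the labelled lineage alone. The sorted cells were labelled pancreatic progenitors, but *Pdx1-Cre* also marks neighbouring gut epithelium, and the labels do not say whether the libraries came from separate embryos, so the p-values measure the spread between libraries, which may be technical.

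Epithelial cells separate an apical surface, which faces the lumen, from a basolateral one. The Par complex (Par3, Par6 and an atypical protein kinase C) and the Crumbs complex mark the apical side and its junctions, and the Scribble complex marks the basolateral side, each antagonising the other. MAL2 is a tetraspanning membrane protein that carries cargo from the basolateral to the apical surface. In the early pancreas, cells polarise around small lumina that later join into a tree of ducts.

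The microRNAs removed in the KO pair with mRNAs mainly through their seed, bases 2 to 8, and the sequences below show the seed that was searched for in the members. The mature sequences are from RefSeq (GRCm38.p6), with the seed in capitals. mmu-miR-302b-3p lies on the plus strand at chr3:127545275-127545297 and mmu-miR-302d-3p at chr3:127545665-127545687. mmu-miR-302a-3p is named only. The same seed is held by miRNAs of another cluster that the KO leaves in place, of which 1 is shown for comparison. mmu-miR-302c-3p, in the form RefSeq gives, has its seed shifted by 1 base.
mmu-miR-302b-3p: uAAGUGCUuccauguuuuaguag
mmu-miR-302d-3p: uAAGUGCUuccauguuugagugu
mmu-miR-302c-3p: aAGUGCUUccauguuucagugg
mmu-miR-294-3p: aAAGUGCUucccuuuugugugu

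*Mal2* was the single member with a match to the seed AAGUGCU in its 3′UTR, and the other 9 had none. The match is shown, with the bases before it, as the only one among the members. It starts at position 1961 of the 2105 bases of the 3′UTR (GENCODE M21 transcripts, GRCm38), and the capitals mark the letters that pair with the seed.
*Mal2* 3′UTR match: gatgttgtgagctgagcgatgaAGCACTT
The count over all genes and members also took in matches that lack the last base of the seed but are followed by an A. Counted in this way, 20.6% of 13760 tested genes with a 3′UTR held a match, beside 1 of the 10 members. The members are too few to compare these shares. The median log2 fold change was -0.03 for genes with a match and -0.02 for all genes with a 3′UTR. A match is a run of letters and was not tested as a binding site.

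Total counts ran from 17352498 to 26634523 per library. The hairpin of *mir-302d* had 2 counts in KO replicate 3 and those of the other *mir-302* genes had none in any library, and poly(A)-selected libraries hold too few reads of such hairpins to check the genotype. Markers of pancreatic progenitors summed to between 788 and 902 CPM (counts scaled to a common library size) in WT and between 877 and 1037 in KO, those of epithelium to between 3860 and 4341 and between 4024 and 4389, and all 10 and all 8 of these markers were detected. *Pdx1* itself lay between 90.6 and 106 CPM in WT and between 73.1 and 108 in KO. Summed levels of mesenchymal markers ran from 272 to 1211 CPM in WT and from 128 to 1129 in KO. Globin and other erythroid genes stood at 16110 CPM in WT replicate 3 and 6463 in KO replicate 1, at 339 in KO replicate 3 and at 2.46 or less in WT replicates 1 and 2 and KO replicate 2. In sorted bulk cells, fewer cells of a type and less RNA per cell cannot be told apart.

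*Mal2* (ENSMUSG00000024479.4) was the lowest of the 10 genes in WT and moved the most. Its level was 4.76, 4.52 and 5.39 CPM in WT and 19.1, 17.5 and 15.6 CPM in KO, from 101, 81 and 111 counts and from 513, 308 and 287 counts. Every KO library lay far above every WT library, and the spread within each genotype was small beside the gap. The means were 4.89 ± 0.447 (SD, n = 3) and 17.4 ± 1.75 (SD, n = 3), a log2 fold change of 1.83 (SE 0.17), or 3.56-fold. With WT replicate 3 and KO replicate 1, the libraries with the most globin, left out, the log2 fold change was 1.86. The library names of WT replicate 2 and KO replicate 1 begin with the same prefix, whose meaning is not stated, and without this pair it was 1.72.

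**Figure D1:**
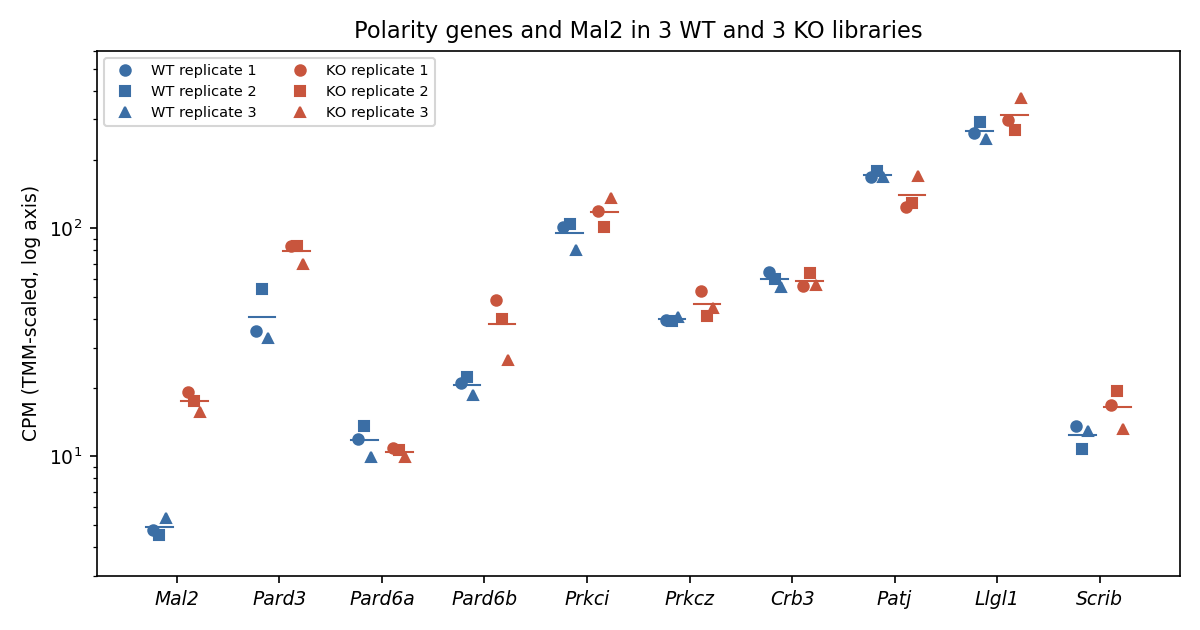
Level of each of the 10 genes in every library, in TMM-scaled CPM on a log axis, with WT and KO libraries as points and the group mean as a line. *Mal2* stands at 4.52 to 5.39 CPM in WT and 15.6 to 19.1 in KO, and the KO points of *Pard3*, *Pard6b* and *Prkcz* also lie above all their WT points.

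No gene of the 16353 tested passed edgeR's quasi-likelihood test at a Benjamini-Hochberg adjusted p of 0.05 (0% of genes), so none of the 9 genes chosen by role did either. At an unadjusted p under 0.05, 2 of the 9 (*Pard3* and *Pard6b*) were higher in KO, against 6.42% of all genes, and 0 were lower, against 3.97%. By DESeq2, the tool the study used, 699 genes passed at an adjusted p under 0.05. The same 2 members were among the genes it called higher, 4.22% of the genes it tested, and none was among the 0.648% it called lower. All KO libraries stood above all WT libraries in 3 of the 9 and below them in 0, against 8.36% and 7.99% of all genes. The median log2 fold change of the 9 was 0.23, beside -0.02 for all genes tested. Since the 9 were chosen with earlier results of these data known, these counts and this median describe them and do not test the group.

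Of the Par complex, the scaffold *Pard3* and the adaptor *Pard6b* were higher in KO by nearly the same amount. *Pard3* (ENSMUSG00000025812.19), which places the complex at forming junctions, stood at 35.3, 54.2 and 32.9 CPM in WT and at 84.0, 84.0 and 69.5 in KO. WT replicate 2 was the high WT library and still lay below all KO libraries. This was a log2 fold change of 0.96 (SE 0.20), with an adjusted p of 0.14 by edgeR's quasi-likelihood test and 0.000225 by DESeq2. Without WT replicate 2, whose removal widens the gap between the groups, it was 1.24, with an edgeR adjusted p of 0.0315. With any other single library left out it ran from 0.85 to 1.08, with edgeR adjusted p from 0.124 to 0.460.

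*Pard6b* (ENSMUSG00000044641.8), which holds the atypical kinase in the complex and binds Cdc42, stood at 20.9, 22.3 and 18.5 CPM in WT and at 48.3, 39.9 and 26.5 in KO. The groups did not overlap, but KO replicate 3 lay closer to the WT libraries than to KO replicate 1. Its log2 fold change was 0.90 (SE 0.23), with an adjusted p of 0.179 by edgeR's quasi-likelihood test and 0.00333 by DESeq2. With WT replicate 3 and KO replicate 1 left out it was 0.65.

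Its paralogue *Pard6a* (ENSMUSG00000005699.17) stood at 11.97, 13.6 and 9.90 CPM in WT and at 10.9, 10.7 and 9.90 in KO, and these ranges overlapped. The log2 fold change was -0.17, with a 95% interval from -0.59 to 0.24 and an edgeR adjusted p of 0.842. Among the *Pard6* genes, compared as CPM per kilobase of exon, *Pard6b* made up 19.7 ± 0.594% (SD, n = 3) in WT and 30.3 ± 5.72% (SD, n = 3) in KO. *Pard6a* made up 24.3 ± 1.31% (SD, n = 3) and 18.2 ± 1.32% (SD, n = 3). Neither share overlapped between the genotypes, while that of *Pard6g*, the most abundant paralogue, went from 56.0 ± 1.28% to 51.5 ± 4.91% (SD, n = 3 each) with overlap. The shares were not tested, since 3 libraries against 3 cannot give an exact permutation p under 0.1, and a rise of 1 share lowers the others.

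The atypical protein kinase C genes moved less. *Prkci* (ENSMUSG00000037643.15), the ι isoform and the main kinase of the complex in most epithelia, stood at 101, 104 and 80.6 CPM in WT and at 118, 101 and 135 in KO. KO replicate 2 lay within the WT range. This gave a log2 fold change of 0.31 (95% interval -0.01 to 0.64, edgeR adjusted p = 0.495). *Prkcz* (ENSMUSG00000029053.17), the ζ isoform, stood at 39.6, 39.2 and 40.9 CPM in WT and at 53.3, 41.4 and 44.9 in KO. The KO libraries all lay above the WT libraries, KO replicate 2 only just. The log2 fold change was 0.22 (95% interval -0.08 to 0.52, edgeR adjusted p = 0.633). *Prkci* made up 72.9 ± 3.25% of the pair per kilobase in WT and 74.2 ± 2.92% in KO (SD, n = 3 each), and these shares overlapped.

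**Figure D2:**
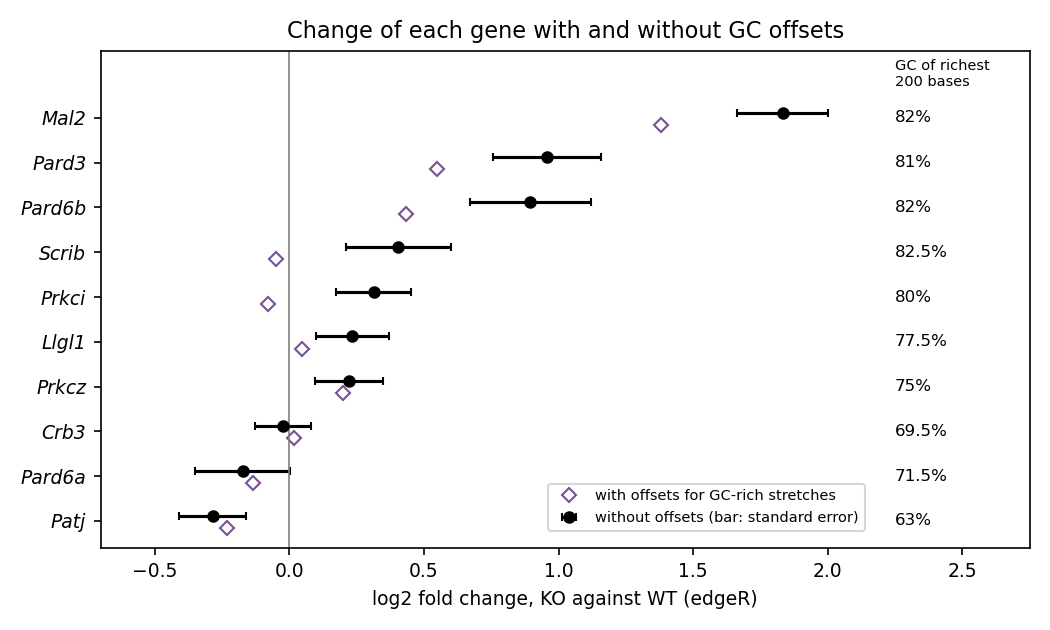
Log2 fold change of each gene, KO against WT, from edgeR, with its SE as a bar, ordered by log2 fold change. Open diamonds show the edgeR fit with the GC correction described below. Labels give the GC percent of the most GC-rich stretch. *Mal2*, at 1.83, was chosen on its difference between the genotypes. The 95% intervals, which are not drawn, lie above 0 before adjustment for *Pard3* (0.48 to 1.43) and *Pard6b* (0.37 to 1.42), and those of the other 7 genes include 0.

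Both Crumbs complex members were at similar or lower levels in KO. *Crb3* (ENSMUSG00000044279.16), the epithelial Crumbs transmembrane protein, stood at 64.2, 60.1 and 55.1 CPM in WT and at 56.1, 64.0 and 56.6 in KO. The libraries of the genotypes were interleaved. The log2 fold change was -0.02 with a 95% interval from -0.27 to 0.22 (edgeR adjusted p = 0.973), so a change of more than 0.27 in either direction lies outside the interval. *Patj* (ENSMUSG00000061859.18), the PDZ scaffold that ties Crumbs to tight junctions, stood at 168, 178 and 167 CPM in WT and at 124, 129 and 169 in KO. KO replicates 1 and 2 lay below all WT libraries and KO replicate 3 within their range. Its log2 fold change was -0.29 (95% interval -0.58 to 0.01, edgeR adjusted p = 0.487).

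Of the Scribble complex, *Llgl1* had the highest level of the 10 genes and *Scrib* one of the lowest. *Llgl1* (ENSMUSG00000020536.13), a substrate of the atypical kinase that is kept off the apical side, stood at 262, 291 and 246 CPM in WT and at 298, 269 and 372 in KO. *Scrib* (ENSMUSG00000022568.18), the basolateral scaffold, stood at 13.6, 10.7 and 12.96 CPM in WT and at 16.8, 19.4 and 13.2 in KO. In both genes at least 1 KO library lay within the WT range. The log2 fold changes were 0.23 (95% interval -0.08 to 0.55, edgeR adjusted p = 0.633) and 0.41 (95% interval -0.05 to 0.86, edgeR adjusted p = 0.541). *Llgl1* shares 64 exon bases (1.32% of its exons) with *Flii* and *Crb3* shares 14 (0.895%) with *Dennd1c*, in each case on opposite strands, and reads in these bases cannot be told apart without strand.

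Per kilobase of exon, the WT level was highest for *Llgl1* (54.8 ± 4.73 CPM per kilobase), then *Crb3* (38.2 ± 2.92), *Prkci* (17.2 ± 2.31) and *Patj* (13.1 ± 0.470), with no overlap between neighbours (SD, n = 3 each). *Pard6a* (7.48 ± 1.18), *Prkcz* (6.32 ± 0.137) and *Pard6b* (6.05 ± 0.556) followed, and each overlapped the next. *Pard3* (2.81 ± 0.806) lay above *Scrib* (1.93 ± 0.235) and *Mal2* (1.66 ± 0.151), and these last 2 overlapped. In KO, *Pard6b* at 11.2 ± 3.23 CPM per kilobase overlapped *Patj* at 10.7 ± 1.88, and *Mal2* at 5.91 ± 0.595 overlapped both *Pard6a* at 6.63 ± 0.333 and *Pard3* at 5.46 ± 0.576. With the length of the longest coding transcript in place of all exons, *Patj* (23.3) stood above *Prkci* (20.2) and *Pard3* (7.02) above *Pard6b* (6.05) in WT, the latter pair with overlap, and *Mal2* was still the lowest.

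In the Crumbs and MAL families, the shares of *Crb2*, *Crb3*, *Mal2* and *Mal* did not overlap between the genotypes, those of *Crb3* only just. They were not tested, and non-overlap of shares in other families was not counted. The larger share of *Mal2* follows from the rise on which the gene was chosen. Within the Crumbs genes per kilobase, *Crb3* made up 96.2 ± 1.48% in WT and 90.0 ± 4.66% in KO, and *Crb2* made up 2.73 ± 1.49% and 9.28 ± 4.51% (SD, n = 3 each). In WT replicate 2 and KO replicate 2 the share of *Crb3* was 94.8% in both after rounding, and that of *Crb2* was 4.08% and 4.83%. The level of *Crb3* itself had a log2 fold change of -0.02, and a rise of *Crb2* lowers the share of *Crb3*. Within the MAL genes, *Mal2* made up 68.0 ± 6.61% in WT and 91.9 ± 2.81% in KO and *Mal*, itself a carrier of apical cargo, 31.1 ± 7.89% and 7.64 ± 2.69% (SD, n = 3 each). *Mal* was low, at 2.87, 1.34 and 2.28 CPM in WT and at 1.53, 0.855 and 1.69 in KO. These levels rest on 61, 24 and 47 counts in WT and on 41, 15 and 31 in KO. The share of *Mal* is set against the level of *Mal2* in the same sum. The shares of *Pard3* against *Pard3b* and of *Llgl1* against *Llgl2* overlapped between the genotypes.

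**Figure D3:**
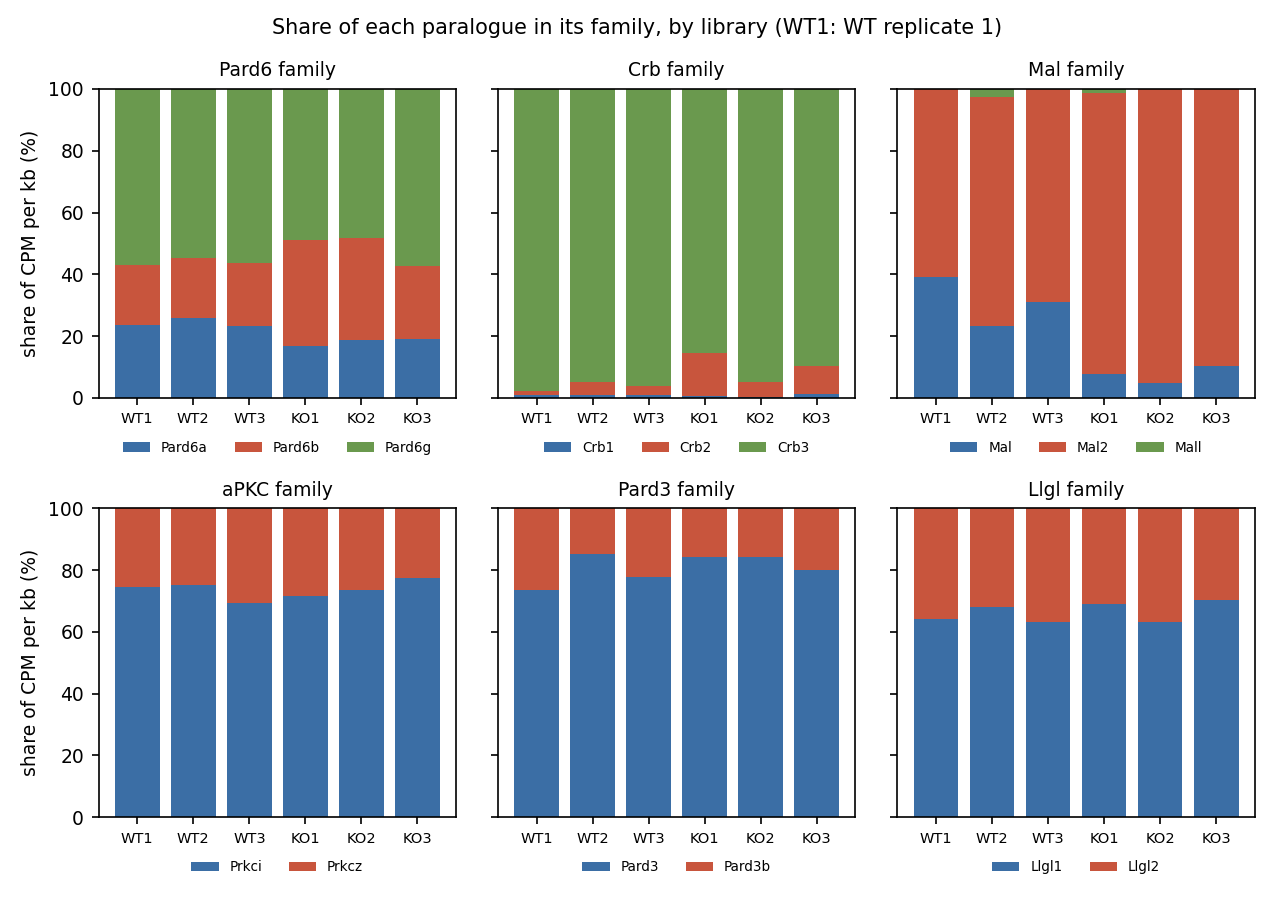
Share of each paralogue in its family by library, as a percent of the summed CPM per kilobase of exon, with 1 stacked bar per library. *Pard6b* takes 19.2 to 20.4% in WT and 23.8 to 34.3% in KO. *Mal2*, which was chosen on its rise in KO, takes 60.9 to 74.0% in WT and 89.7 to 95.1% in KO.

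Around the members, a list of polarity, apical transport and apical membrane genes held 91 symbols, of which 90 were in the table and 86 were tested. The list too was chosen with earlier results of these data known, so its shares are descriptions and not a test. Without *Mal2*, 42 were higher in KO and 43 were lower, and their median log2 fold change was -0.0011, beside -0.02 for all genes. None passed edgeR's test. At an unadjusted p under 0.05, 8 of 85 (9.41%) were higher and 3 (3.53%) lower, beside 6.42% and 3.97% of all genes. DESeq2 called 7 of 84 (8.33%) higher and 0 lower, beside 4.22% and 0.648%. The 7 were *Pard3*, *Pard3b*, *Pard6b*, *Crb2*, *Mark2*, *Mark3* and *Cab39*. With a correction for the GC content of transcripts, DESeq2 no longer called *Pard3b*, *Pard6b* and *Mark2* and called *Dlg3* lower.

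Of all genes tested, 45.6% were higher and 54.4% lower in KO. The Par complex had 6 of 11 tested genes higher and the Scribble complex 7 of 11, with medians of 0.13 and 0.04. The Crumbs complex had 10 of 12 lower, with a median of -0.20, but only *Amotl1* among them had an unadjusted p under 0.05. The 25 tested genes of apical transport were split 12 to 13 and none was called by DESeq2. Of the 7 apical membrane genes, among them the ezrin gene *Ezr* and the podocalyxin gene *Podxl*, 6 were higher and none was called. Their median was only 0.03. The MAL and MARVEL group had 4 of 9 higher, *Mal2* included, the Par-1 and Lkb1 kinases 4 of 8, and the basolateral sorting genes 2 of 3.

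*Cab39* and *Mark3*, of the Par-1 and Lkb1 kinase group, had the smallest edgeR p among the higher list genes after *Mal2*. *Cab39* encodes MO25, which activates the polarity kinase Lkb1. It stood at 16.2, 34.2 and 21.9 CPM in WT and at 103, 80.6 and 51.4 in KO, a log2 fold change of 1.70 (SE 0.34) with an adjusted p of 0.132 by edgeR and 2.71e-06 by DESeq2. *Mark3*, one of the Par-1 kinases, stood at 12.2, 15.9 and 11.3 CPM in WT and at 64.3, 45.2 and 22.6 in KO. Its log2 fold change was 1.75 (SE 0.36), with an adjusted p of 0.14 by edgeR and 1.26e-05 by DESeq2. In both genes KO replicate 1 was highest and KO replicate 3 lowest of the KO libraries, as in *Pard6b*.

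The paralogue *Mark2* moved by less but with little spread, from 60.9, 70.8 and 64.4 CPM in WT to 88.6, 83.6 and 88.0 in KO. Its log2 fold change was 0.41 (SE 0.09), with an adjusted p of 0.142 by edgeR and 0.0103 by DESeq2. *Crb2*, a second Crumbs gene, stood at 3.16, 11.1 and 7.33 CPM in WT and at 38.9, 14.0 and 24.8 in KO. KO replicate 2 lay only a little above WT replicate 2, and the log2 fold change of 1.85 had an SE of 0.51 (adjusted p = 0.217 by edgeR and 0.00107 by DESeq2). *Pard3b*, a paralogue of *Pard3* that does not bind the atypical kinase, stood at 11.5, 8.55 and 8.59 CPM in WT and at 14.4, 14.2 and 15.8 in KO, a log2 fold change of 0.63 (adjusted p = 0.226 by edgeR and 0.0428 by DESeq2).

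The 3 lower genes with the smallest edgeR p were *Amotl1*, *Stx4* and *Tpd52l1*. *Amotl1*, an angiomotin that binds the Crumbs complex, stood at 54.2, 52.2 and 50.1 CPM in WT and at 42.5, 40.2 and 45.9 in KO, with a log2 fold change of -0.29 and an edgeR adjusted p of 0.375. *Stx4*, the basolateral syntaxin, had a log2 fold change of -0.47 (edgeR adjusted p = 0.449) and *Tpd52l1*, of a protein family that binds MAL2, -0.55 (edgeR adjusted p = 0.461). DESeq2 called none of these.

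**Figure D4:**
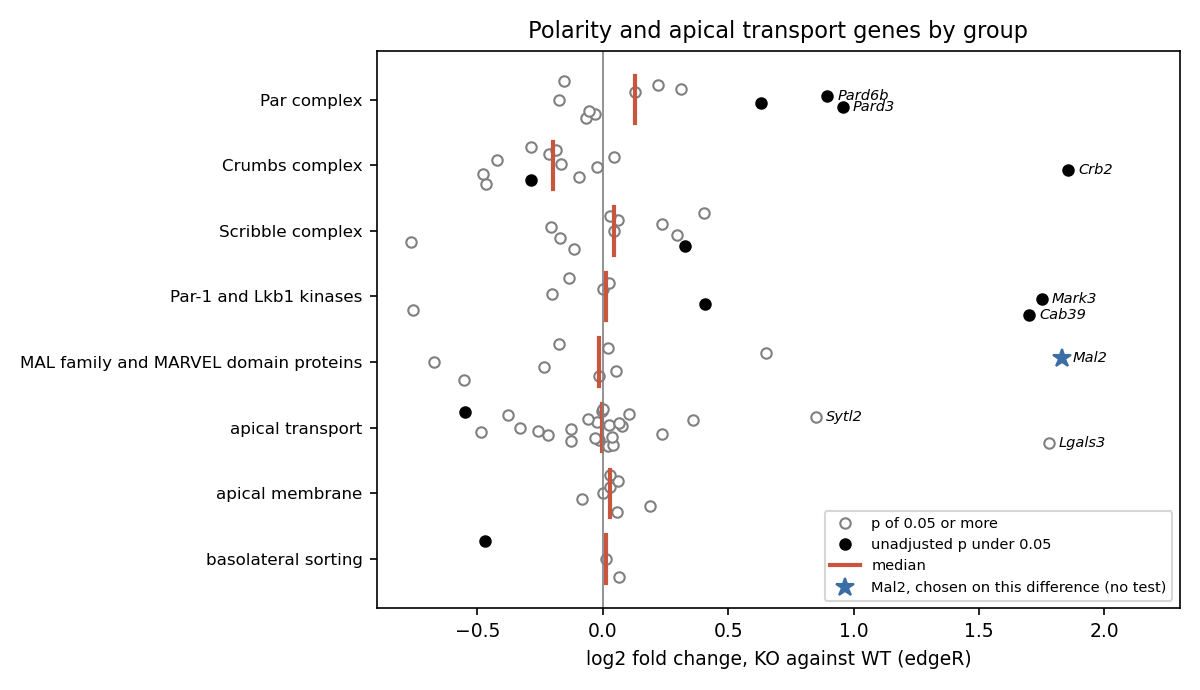
Log2 fold change of the 86 tested list genes by group, KO against WT, with filled points for an unadjusted edgeR p under 0.05, a red line at each group's median and a star for *Mal2*. The group medians lie between -0.20 (Crumbs complex) and 0.13 (Par complex). *Crb2*, *Mark3*, *Cab39*, *Mal2* and the apical transport gene *Lgals3* stand at 1.70 or more after rounding, *Lgals3* (1.78) on 2 to 45 counts per library.

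The direction of the members went with the most GC-rich stretch of 200 bases in their transcripts. The 7 genes higher in KO held a stretch of 75 to 82.5% GC, and those lower in KO, *Pard6a*, *Crb3* and *Patj*, peaked at 71.5, 69.5 and 63%. Across all tested coding genes the 3633 with a stretch of at least 75% GC had a median log2 fold change of 0.13 and the other 10212 one of -0.04. In the list without *Mal2*, the 33 genes with such a stretch had a median of 0.11 and the other 52 one of -0.06, near those of all coding genes. Of the 33, 22 were higher, and of the other 52, 20 were higher. All 8 list genes that were higher at an unadjusted p under 0.05 were among the 33. The share of all genes that were higher at this p in each GC class was not counted, so the 8 have no background here.

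When a smooth trend on this GC content was removed in each library, the log2 fold change of *Mal2* was 1.38, that of *Pard3* 0.55 and that of *Pard6b* 0.43, and those of *Prkci* and *Scrib* turned to -0.08 and -0.05. With the same correction DESeq2 called *Pard3* (adjusted p = 0.0143) but no longer *Pard6b* (adjusted p = 0.196). A GC-related trend between libraries and a genotype difference in genes with GC-rich stretches cannot be told apart with these libraries.

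The 5 genes whose level over the 6 libraries was most like that of *Mal2*, among 14691 with a mean of at least 1 CPM, were *Lrig3*, *D17Wsu92e*, *Tmem245*, *Prkar2b* and *Tspan12*. Their Pearson correlations with *Mal2* in log2 CPM ran from 0.978 to 0.994 over 6 libraries, which fall into the same 2 genotypes. *Lrig3*, a transmembrane protein with leucine-rich repeats, was the nearest, at 7.35, 8.66 and 9.27 CPM in WT and 31.3, 27.6 and 26.99 in KO. *Prkar2b*, a regulatory subunit of protein kinase A, stood at 17.01, 18.4 and 18.2 CPM in WT and at 37.5, 39.1 and 29.5 in KO. *Tspan12*, a tetraspanin, had a log2 fold change of only 0.22 (SE 0.08). *Tmem245* held 8 matches, those lacking the last base of the seed included, in a 3′UTR of 13324 bases and the other 4 held none.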

How the data were processed

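The data were 6 poly(A) mRNA libraries (SMART-seq v4 cDNA, Nextera XT), 3 WT and 3 KO, grouped by the genotype labels. The authors aligned reads to GRCm39 with STAR, quantified them with GenomicAlignments and did not normalize the deposited counts, which are whole numbers. Tool versions, gene annotation and strand setting are not given in the sources used here, and amplified reads are not independent molecules. Every column was used.

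After edgeR's filterByExpr (version 4.0.16, R 4.3.3) had removed low genes, libraries were scaled by TMM and genotype was tested as the sole term by quasi-likelihood and Benjamini-Hochberg adjustment over all 16353 genes tested. There were 4 residual and 3.26 prior degrees of freedom. CPM were scaled by TMM. DESeq2 1.42.0 at its defaults was an alternative, with 14353 genes given an adjusted p. Both were tested on simulated data. Symbols came from a table of Ensembl names and were found for 94.0% of identifiers.

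The members and the gene lists were chosen with earlier results of these data known. Named beyond the members were list genes that DESeq2 called, the 3 list genes with the smallest edgeR p in each direction, and the 5 genes most correlated with *Mal2*. *Vamp7* was not matched, and *Lin7b*, *Mall*, *Anxa13* and *Pigr* did not pass the filter. Transcript length, 3′UTRs and GC content were taken from GENCODE M21 (GRCm38), so member coordinates are not given. The GC-rich stretch was the highest share of G and C in 200 consecutive bases of any protein-coding transcript. Its trend was removed per library with a loess curve of span 0.3.

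Same-numbered WT and KO libraries had correlations of -0.24, 0.31 and 0.12 between their deviations from the group means, so the numbers were not taken as pairs. Other processing was tried in 15 fits, of which 2, DESeq2 with the GC correction and leaving out the libraries with the most globin, were chosen after seeing the data.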

Additional observations from a re-analysis of the deposited data

How the results depend on the processing

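Counts of called genes here leave out *Mal2*, where members and the list are meant. edgeR called 0 genes, 0 members and 0 list genes at an adjusted p under 0.05. DESeq2 called 699, 2 and 7, edgeR with no filter on low counts 264, 1 and 3, and DESeq2 with the GC correction 540, 1 and 5. That correction moved the DESeq2 calls from 606 higher and 93 lower to 361 and 179, and those of the list from 7 and 0 to 4 and 1. With 1 library left out at a time, edgeR called 0 to 217 genes, 0 to 1 members and 0 to 1 list genes, and the calls came without WT replicate 2. It called 0 of each with its newer estimate of the spread, with DESeq2 size factors, with the GC correction, without the libraries that share a name prefix, and without the libraries with the most globin. At an unadjusted p under 0.05 the fits held 788 to 2154 genes. The list median, here with *Mal2* included, was -0.0003 in the main fit. It was -0.0517 in edgeR with the GC correction and 0.0471 without the libraries with the most globin. With 1 library left out it ran from -0.0062 to 0.0225.

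The log2 fold change of *Mal2* ran from 1.38 to 1.94 over the 15 fits, that of *Pard3* from 0.55 to 1.24 and that of *Pard6b* from 0.43 to 1.14, and these kept their direction, as did *Pard6a*, *Prkcz*, *Patj* and *Llgl1*. The GC correction turned *Prkci* to -0.0799 in edgeR and -0.0512 in DESeq2, *Scrib* to -0.0483 and -0.0316, and *Crb3* to 0.0157 and 0.0339. *Crb3* was 0.0290 without the libraries that share a name prefix and ran from -0.0684 to 0.0404 with 1 library left out, being above 0 without WT replicate 1, WT replicate 2, KO replicate 1 or KO replicate 3. The cause of these changes was not tested.

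With the replicate number as a replicate block, edgeR called 0 genes, 0 members and 0 list genes, so the block changed no call. The list median, *Mal2* included, was -0.02. Same-numbered libraries were not in every case the most alike, since KO replicate 1 correlated best with WT replicate 3 (0.40). Genes at low levels, such as *Mal*, rest on few counts, and 3 libraries per genotype limit what can be detected.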
